A study of Mus musculus with 6 samples.

Results

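The urea cycle and its supply of ammonia were followed through 10 genes in GFP+ cells sorted from embryonic mouse liver. These genes were picked by symbol, as members of the pathway, from the 52550 genes listed, and all 10 were found. They comprise the mitochondrial enzymes Nags, Cps1 and Otc, the cytosolic enzymes Ass1, Asl and Arg1, the mitochondrial carriers Slc25a15 and Slc25a13, and Gls2 and Glud1, which release ammonia from glutamine and glutamate. The cells came from livers of CD-1 embryos of the Sox9-GFP genotype, in which GFP reports the transcription factor SOX9, a biliary marker. All 6 libraries shared this strain, genotype and sort, and each was made from a pool of 15 livers from which haematopoietic cells had been depleted before sorting. The labels separate the groups by stage only, with 3 libraries for each of E16.5 and E18.5, here called replicates A, B and C. The sample labels give these stages as embryonic days 16 and 18. No treatment was given, and the question addressed here is how the RNA of these genes differed between the stages.

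The urea cycle is the route by which hepatocytes turn ammonia into urea for excretion. Carbamoyl phosphate is made and joined to ornithine inside the mitochondrion, and the citrulline that results is carried through argininosuccinate and arginine back to ornithine in the cytosol. In adult liver the cycle is a property of hepatocytes, strongest around the portal veins, whereas cholangiocytes, which line the bile ducts, are not known for it. Both cell types descend from the hepatoblast, and embryonic bile ducts form from hepatoblasts next to the portal vein.

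Values are TPM, a unit of transcript abundance scaled by gene length and library total, and so levels of different genes can be set side by side. Reads recovered from the TPM totalled 23193537 to 26206374 per library for E16.5, and 13093937 to 22643868 for E18.5, where replicate C was the shallowest. The labelled cell type was checked against marker genes. All 10 cholangiocyte markers had a higher mean at E18.5. Of these, 9 were higher at a limma adjusted p under 0.05, beside 26.0% of all genes tested. In TPM 83.3% of all calls were higher at E18.5, a share that depended on scaling, as given below. The summed level of the 10 markers ranged from 704 to 2431 TPM at E16.5 and from 7962 to 13736 TPM at E18.5. Sox9, Krt19 and Epcam averaged 138, 77.8 and 85.5 TPM at E16.5 and 411, 237 and 262 TPM at E18.5. RNA of hepatoblasts and hepatocytes was abundant in every library: 12 of their markers summed to between 180424 and 230296 TPM at E16.5 and between 43267 and 105031 TPM at E18.5. On the log2(TPM + 1) scale 11 of the 12 were lower at E18.5. At a limma adjusted p under 0.05, 6 of them were lower, beside 5.22% of all genes tested. Alb alone, the gene of serum albumin, had 117854 to 148077 TPM in the E16.5 libraries, up to 14.8% of the total, and 30024 to 70151 TPM in those of E18.5. Afp, the gene of the fetal serum protein alpha-fetoprotein, averaged 27566 TPM at E16.5, and its E18.5 mean was 3881 TPM. The libraries therefore hold RNA of the hepatocyte lineage beside that of cholangiocytes at both stages, and in such pools fewer cells of a type and less RNA per cell cannot be told apart. Replicate B of E18.5 stood apart with the lowest hepatocyte marker sum and the highest erythroid sum (387 TPM, against 81.7 and 113 TPM in replicates A and C). Replicate C of E16.5 had the lowest cholangiocyte sum, and replicate A of E16.5 held 2367 TPM of pancreatic acinar markers, against at most 217 TPM elsewhere. Of 7 megakaryocyte markers, 7 passed the same limma test as lower at E18.5, beside 5.22% of all genes tested. Their sums were 3222 to 9340 TPM at E16.5 and 85.0 to 738 TPM at E18.5.

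Transcripts of all 10 genes were present in every library, and several ranked among the most abundant of the 21819 protein-coding genes listed. Glud1, which encodes glutamate dehydrogenase, had the highest listed mean of the 10 at both stages, with 796 ± 40.5 TPM (SD, n = 3) at E16.5, above 99.7% of protein-coding genes. Ass1 followed at 571 ± 88.3 TPM and Cps1 at 461 ± 62.7 TPM, and the ranges of Ass1 and Cps1 overlapped. The rank of Glud1 over Ass1 depends on near-identical copies of both genes, described below. With copies added, Ass1 had 1220, 1220 and 1430 TPM at E16.5, above Glud1 at 980, 974 and 1030 TPM. At E18.5 Ass1 then had 759, 461 and 1330 TPM, and Glud1 663, 581 and 652 TPM. Slc25a13 at 233 ± 10.7 TPM, Arg1 at 178 ± 36.0 TPM and Otc at 106 ± 21.5 TPM formed the middle of the order. The lowest were Gls2 at 69.3 ± 14.7 TPM, Slc25a15 at 58.2 ± 1.35 TPM, Asl at 34.7 ± 1.67 TPM and Nags at 25.8 ± 2.44 TPM. Apart from Ass1 with Cps1 and Gls2 with Slc25a15, neighbours in the E16.5 order did not overlap. At E18.5 the order was Glud1, Cps1, Ass1, Slc25a13, Arg1, Slc25a15, Otc, Gls2, Asl and Nags, and of these neighbours only Asl and Nags did not overlap. Otc moved from above 95.7% of protein-coding genes at E16.5 to above 78.3% at E18.5, and Nags from above 76.4% to above 54.7%. Cps1 stayed above 99.4% and 99.3%, and Slc25a13 above 98.5% and 98.4%. For the 9 genes with recovered reads, single values rested on 77 reads (Nags, replicate B of E18.5) to 23076 reads (Cps1, replicate B of E16.5), and the level that 3 reads would give lay between 0.0622 and 0.332 TPM. Depth was thus no limit on detecting these transcripts. Summed over the 10 genes, the level was 2413, 2470 and 2717 TPM at E16.5 and 1674, 1092 and 2382 TPM at E18.5, in the order of replicates A, B, C.

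**Figure D1:**
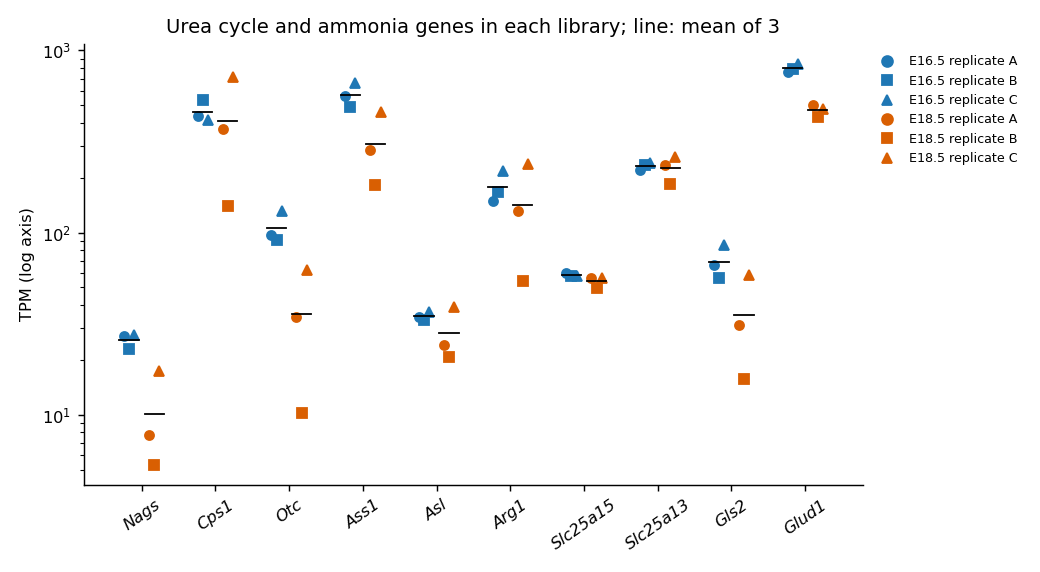
TPM (log axis) of the 10 genes in each of the 6 libraries, with E16.5 in blue and E18.5 in orange, a symbol per replicate, and a line at the mean of 3. Replicate B of E18.5 was the lowest of the 6 libraries for every gene, and on this axis the E18.5 libraries spread more widely than the E16.5 libraries for each gene.

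The stages were compared with limma on log2(TPM + 1) over 22452 genes, with Benjamini-Hochberg adjustment, and a gene was called at an adjusted p under 0.05. Of the 10 genes, 3 were called lower at E18.5 (Nags, Otc and Glud1) and 0 higher. An unadjusted p under 0.05 was reached by 5. Leaving out replicate C of E18.5 gave 6 calls, and leaving out any other library gave 1, Glud1. Over all genes tested, with every library in, 31.2% (7000) were called, 5.22% lower and 26.0% higher. That number was 5432 without replicate C of E18.5 and 1148 to 4769 in the other omissions. The log2 fold change was below 0 for 10 of 10, with a median of -0.65, whereas 22.1% of all genes tested were below 0 and their median was 0.42. For 5 of the 10 genes the E16.5 and E18.5 values were fully apart (Nags, Otc, Ass1, Slc25a15 and Glud1, all lower at E18.5), beside 53.3% of all genes in either direction and 8.30% lower at E18.5. With 3 libraries against 3 an exact permutation test cannot give a two-sided p below 0.1. The direction of calls across the transcriptome depended on scaling: 83.3% of calls were higher at E18.5 in TPM, 38.1% under median-of-ratios scaling and 50.5% under quantile normalization. Median-of-ratios scaling brought the median of all genes to 0.011, with 16.9% called and 10.5% called lower. It lowers E18.5 values as a whole, so the 10 genes, already below 0 in TPM, were bound to stay below 0. Nothing in the labels says that the pools came from separate litters or days, so these p-values measure the spread between these libraries, which may be partly technical.

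**Figure D2:**
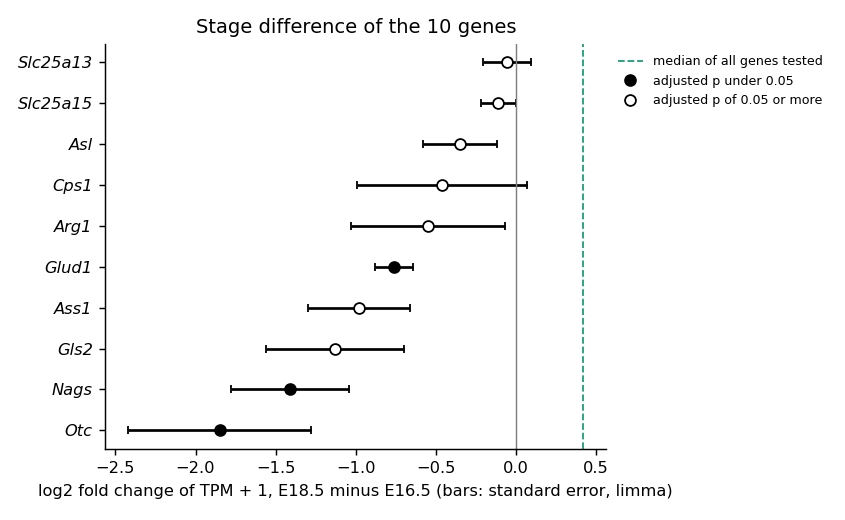
Log2 fold change of TPM + 1 (E18.5 minus E16.5) of the 10 genes with its standard error from limma, filled where the adjusted p was under 0.05, and a dashed line at the median of all genes tested (0.42). All 10 points lie below 0, from -0.055 for Slc25a13 to -1.85 for Otc, and the errors of Cps1, Arg1 and Otc are the widest.

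Of the mitochondrial enzymes that begin the cycle, Nags and Otc were called and Cps1 was not; whether the genes differed from each other was not tested. Nags (ENSMUSG00000048217, chr11:102145513-102149477, plus strand of GRCm38) encodes N-acetylglutamate synthase, whose product is the obligate activator of carbamoyl phosphate synthetase. Its level in replicates A to C was 27.1, 23.0 and 27.3 TPM at E16.5 and 7.78, 5.31 and 17.3 TPM at E18.5. Every E18.5 value was below every E16.5 value. Its log2 fold change was -1.41 ± 0.37 (SE, limma, adjusted p = 0.0295), a level 2.66-fold lower on the TPM + 1 scale. The call was lost when any library other than replicate C of E18.5 was left out, with log2 fold changes of -1.49 to -1.08. A non-coding gene on the other strand, Gm11586, shares 15.6% of the exonic length of Nags and was listed at 0 to 2.07 TPM.

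Otc (ENSMUSG00000031173, chrX:10252305-10321024, plus strand) encodes ornithine transcarbamylase, which makes citrulline in the mitochondrial matrix. It had 96.4, 90.8 and 131 TPM at E16.5 and 34.4, 10.2 and 62.6 TPM at E18.5, again without overlap. With a log2 fold change of -1.85 ± 0.57 (adjusted p = 0.0474), or 3.60-fold lower on the TPM + 1 scale, it showed the largest difference of the 10 genes. The call was near the threshold and held in 5 of 16 alternatives, whose adjusted p ranged from 0.0175 to 0.132. Among the 5 is the summing of near-identical copies, which does not touch Otc and only repeats the main fit. Otc stood at -1.15 once replicate B of E18.5 was left out.

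Cps1 (ENSMUSG00000025991, chr1:67123026-67231259, plus strand) encodes carbamoyl phosphate synthetase I, the enzyme that fixes free ammonia. Its levels were 437, 533 and 414 TPM at E16.5 and 370, 140 and 715 TPM at E18.5, so that the E18.5 libraries lay both below and above all of E16.5. The log2 fold change was -0.46 ± 0.53 (adjusted p = 0.516), and without replicate B of E18.5 it was 0.17. No difference in Cps1 between the stages was therefore detected against this spread.

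Of the cytosolic enzymes none was called. Ass1 (ENSMUSG00000076441, chr2:31470207-31520672, plus strand) encodes argininosuccinate synthase, which joins citrulline to aspartate. It was listed at 559, 489 and 665 TPM at E16.5 and 282, 182 and 457 TPM at E18.5, without overlap, and its log2 fold change of -0.98 ± 0.32 just missed the threshold (adjusted p = 0.0533). It was called in 4 of 16 alternatives: without replicate C of E18.5 (-1.32, adjusted p = 0.0289), with a minimum mean of 5 TPM, with the replicate letters as a block, and in limma voom on recovered reads (-1.14, adjusted p = 0.0202). The level of Ass1 is uncertain because the processed pseudogene Gm5424 matches 73.1% of its transcript, with 99.5% identity over the longest match of 1240 bases. Gm5424 itself was listed at 658, 729 and 767 TPM at E16.5 and 477, 278 and 876 TPM at E18.5, more than Ass1 in every library. Summed, Ass1 and Gm5424 gave 1220, 1220 and 1430 TPM at E16.5 and 759, 461 and 1330 TPM at E18.5, ranges that overlapped. The log2 fold change of the sum was -0.73 (adjusted p = 0.150).

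Asl (ENSMUSG00000025533, chr5:130011258-130029247, minus strand) encodes argininosuccinate lyase, which releases arginine and fumarate. Its 34.4, 33.1 and 36.5 TPM at E16.5 faced 24.0, 20.8 and 39.1 TPM at E18.5. The stages overlapped and the log2 fold change was -0.35 ± 0.23 (adjusted p = 0.258). Without replicate C of E18.5, the highest of the 6 libraries, Asl was called at -0.61 (adjusted p = 0.0348). Arg1 (ENSMUSG00000019987, chr10:24915221-24927484, minus strand) encodes liver arginase, which splits arginine into urea and ornithine. It had 148, 167 and 218 TPM at E16.5 and 131, 54.5 and 238 TPM at E18.5. Replicate C of E18.5 was again the highest of the 6 libraries and replicate B the lowest. Arg1 had a log2 fold change of -0.55 ± 0.48 (adjusted p = 0.394), and 0.0077 without replicate B of E18.5.

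In TPM the carriers that connect the mitochondrial and cytosolic steps differed least between the stages. Set beside the hepatocyte lineage markers of each library they differed most, as given below. Slc25a15 (ENSMUSG00000031482, chr8:22375551-22398597, minus strand) exchanges ornithine for citrulline across the inner mitochondrial membrane. Its levels were 59.8, 57.5 and 57.4 TPM at E16.5 and 56.2, 49.4 and 56.3 TPM at E18.5. These ranges did not overlap, yet the log2 fold change was only -0.11 ± 0.11 (adjusted p = 0.445). Under median-of-ratios scaling, which lowers E18.5 values as a whole, it was -0.57 and called (adjusted p = 0.0344). Slc25a13 (ENSMUSG00000015112, chr6:6041218-6217173, minus strand) encodes citrin, which exports aspartate for the Ass1 reaction. It had 221, 235 and 242 TPM at E16.5 and 234, 184 and 261 TPM at E18.5. Slc25a13 had a log2 fold change of -0.055 ± 0.15 (adjusted p = 0.786), and 0.086 without replicate B of E18.5.

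Of the genes that supply ammonia and glutamate, Glud1 was called and Gls2 was not. Glud1 (ENSMUSG00000021794, chr14:34310727-34345265, plus strand) had 763, 785 and 841 TPM at E16.5 and 504, 431 and 477 TPM at E18.5. The E18.5 libraries lay close together, well below those of E16.5. Its log2 fold change of -0.76 ± 0.12 (adjusted p = 0.0110), or 1.69-fold lower on the TPM + 1 scale, was called in 15 of 15 alternatives. Reads of Glud1 can be shared with the processed pseudogene Glud-ps, which matches it with 97.6% identity over 656 bases and was listed at 99.8 to 146 TPM, and with Gm43444. With both copies added, the fold change of Glud1 was -0.66 (adjusted p = 0.0140). Gls2 (ENSMUSG00000044005, chr10:128194457-128210004, plus strand) encodes liver-type glutaminase. It had 66.5, 56.2 and 85.2 TPM at E16.5 and 31.0, 15.7 and 58.5 TPM at E18.5, and replicate C of E18.5 overlapped the E16.5 range. Gls2 had a log2 fold change of -1.13 ± 0.43 (adjusted p = 0.0812). It was called in 3 of 16 alternatives, among them the omission of replicate C of E18.5 (-1.58, adjusted p = 0.0315). The 16 include the summing of copies, which does not touch Gls2.

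The DNA before the start of the 3 genes called lower is shown beside that of Slc25a13, the gene with the smallest difference in TPM, so that their base composition and motifs can be compared. The sequences are the 250 bases before the RefSeq gene start (GRCm38.p6), written 5′ to 3′ on the strand of the gene. They lie at chr11:102145263-102145512 (Nags, plus strand), chrX:10252055-10252304 (Otc, plus strand), chr14:34310477-34310726 (Glud1, plus strand) and chr6:6217174-6217423 (Slc25a13, minus strand). Capitals mark every match, on either strand, to any of 8 motifs searched: TTGCNNAA (C/EBP), AGTTCA (a half-site found in HNF4 elements), AGTCCA (a variant of that half-site), AGGTCA (the nuclear receptor half-site), GTTAAT (HNF1 half-site), TATAAA (the core promoter element bound by TBP), GGGCGG (the site of SP family factors, called the GC box) and TGACGTCA (cAMP response element).
Nags: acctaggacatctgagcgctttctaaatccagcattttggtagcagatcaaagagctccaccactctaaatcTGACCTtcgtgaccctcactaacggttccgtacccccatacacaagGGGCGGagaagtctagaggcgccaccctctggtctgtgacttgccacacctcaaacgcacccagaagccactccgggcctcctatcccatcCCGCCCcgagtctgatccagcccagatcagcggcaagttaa
Otc: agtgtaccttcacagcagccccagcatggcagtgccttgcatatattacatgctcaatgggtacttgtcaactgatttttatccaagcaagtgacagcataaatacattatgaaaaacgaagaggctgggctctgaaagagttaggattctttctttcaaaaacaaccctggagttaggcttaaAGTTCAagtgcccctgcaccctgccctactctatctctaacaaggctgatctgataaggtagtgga
Glud1: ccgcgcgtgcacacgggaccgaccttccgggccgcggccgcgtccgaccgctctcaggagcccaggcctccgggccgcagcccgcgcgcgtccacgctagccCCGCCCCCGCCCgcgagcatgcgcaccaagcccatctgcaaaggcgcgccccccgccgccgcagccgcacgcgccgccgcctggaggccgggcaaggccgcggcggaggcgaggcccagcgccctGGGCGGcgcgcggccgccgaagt
Slc25a13: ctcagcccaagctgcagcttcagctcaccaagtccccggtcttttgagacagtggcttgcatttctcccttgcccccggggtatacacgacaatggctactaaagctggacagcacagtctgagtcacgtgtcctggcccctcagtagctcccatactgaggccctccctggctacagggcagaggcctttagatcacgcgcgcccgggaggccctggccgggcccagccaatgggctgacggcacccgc

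The window of Otc was the poorest in G and C of those found for 6 of the 10 genes. It had 43.6% GC, with a CpG content of 0.0843 of that expected, and a single motif match, AGTTCA at -66 to -61 counted from the start. Glud1 was the opposite, with 82.0% GC, more than 99.3% of the 32851 windows of all genes, and 3 GC boxes, of which 2 lie side by side. Nags had 55.6% GC, with an AGGTCA match on the minus strand at -178 to -173 and 2 GC boxes. Slc25a13 had 62.8% GC and no match to these letters in this window. The median over all windows was 52.4% GC. Among them AGTTCA occurred in 11.8%, AGGTCA in 14.0%, GGGCGG in 32.7%, AGTCCA in 11.5%, TATAAA in 12.4%, TTGCNNAA in 9.56%, GTTAAT in 6.43% and TGACGTCA in 1.55%, so most of these letters are common. The genes called lower thus had promoters of unlike composition, and a match describes letters, not binding.

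Within E18.5 the libraries fell in the same order for nearly all of these genes. Replicate B was the lowest of the 3 E18.5 libraries for 10 of 10 genes, beside 20.3% of all genes tested, and the order B, A, C held for 9 of 10, beside 12.5%; Glud1 was the exception. The ratio of replicate C to replicate B was 6.11 for Otc, 5.12 for Cps1, 4.36 for Arg1, 3.72 for Gls2 and 3.25 for Nags. It was 2.51 for Ass1, 1.88 for Asl, 1.42 for Slc25a13, 1.14 for Slc25a15 and 1.11 for Glud1, and its median over all genes tested was 0.881. At E16.5 the highest library exceeded the lowest by 1.04 to 1.52 times. The mean log2(TPM + 1) of the 12 hepatoblast and hepatocyte markers followed the same order at E18.5, with 9.53 in replicate B, 10.49 in A and 10.78 in C, against 11.39 to 11.71 at E16.5. The summed cholangiocyte markers ran the other way, at 13736 TPM in replicate B, 11561 in A and 7962 in C, but most of that sum was Spp1 (12121, 10012 and 6629 TPM). Of the 10 markers, 5 followed this order and 2, Muc1 and Cldn4, were lowest in replicate B. The part of cell composition in the differences between the stages was not tested.

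**Figure D3:**
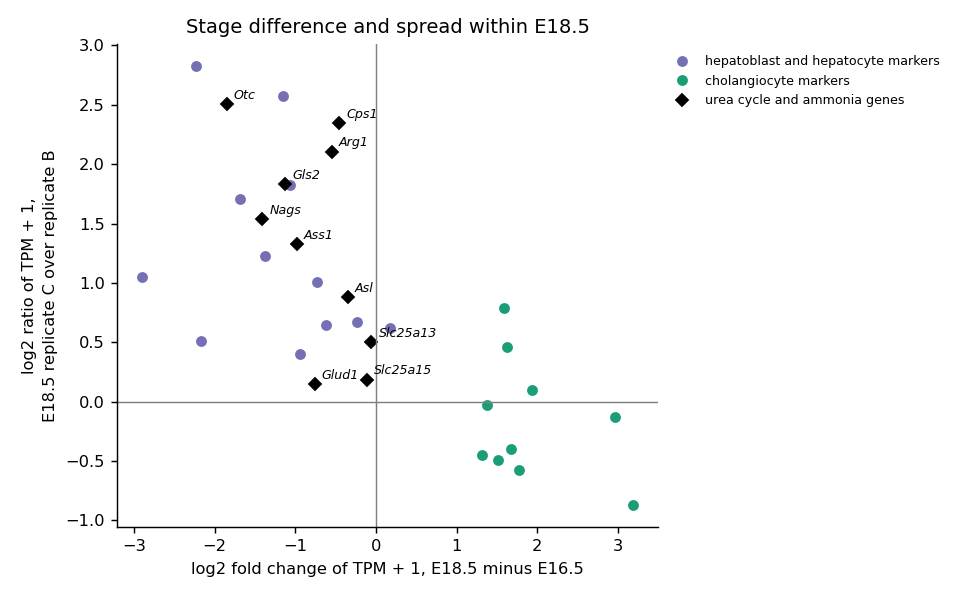
Stage difference of each gene (x axis, log2 fold change of TPM + 1, E18.5 minus E16.5) against the log2 ratio of TPM + 1 between replicates C and B of E18.5 (y axis), for the 10 genes (black), 12 hepatoblast and hepatocyte markers (purple) and 10 cholangiocyte markers (green). The 10 genes lie left of 0 and above 0, where 11 of the 12 hepatocyte markers also lie, and cholangiocyte markers lie right of 0.

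Set beside the hepatocyte lineage markers of the same library, the 10 genes no longer moved in 1 direction. For each library the mean log2(TPM + 1) of the 12 markers was subtracted from that of each gene. On this scale Slc25a13 had -3.60, -3.54 and -3.78 at E16.5 and -2.61, -2.00 and -2.75 at E18.5, a difference of 1.19. Slc25a15 differed by 1.13, Asl by 0.89 and Arg1 by 0.69, and for these 4 genes every E18.5 value was above every E16.5 value. Each gave p = 0.1, the smallest an exact two-sided permutation test allows here, and 0.250 after adjustment over the 10 genes, so none passed. Cps1 (0.79), Glud1 (0.48), Ass1 (0.26) and Gls2 (0.11) were also higher on average, with ranges that overlapped. Nags (-0.17) and Otc (-0.60) were lower on average, again with overlap. The sign for Nags and Gls2 turned when single libraries were left out (0.038 for Nags without replicate A of E18.5, -0.082 for Gls2 without replicate C of E18.5). Otc had -4.79, -4.91 and -4.67 at E16.5 and -5.34, -6.04 and -4.79 at E18.5. These values depend on the markers chosen: without Hnf4a and Cebpa in the list, the difference of Nags was 0.035 and that of Otc -0.40. Those 2 markers fell little or rose (log2 fold changes of -0.62 and 0.17), and leaving them out raised the difference of every gene. The list also holds markers that fell far more, such as Afp (-2.90) and Dlk1 (-2.17). Leaving those out was not tried, and it would lower every difference.

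**Figure D4:**
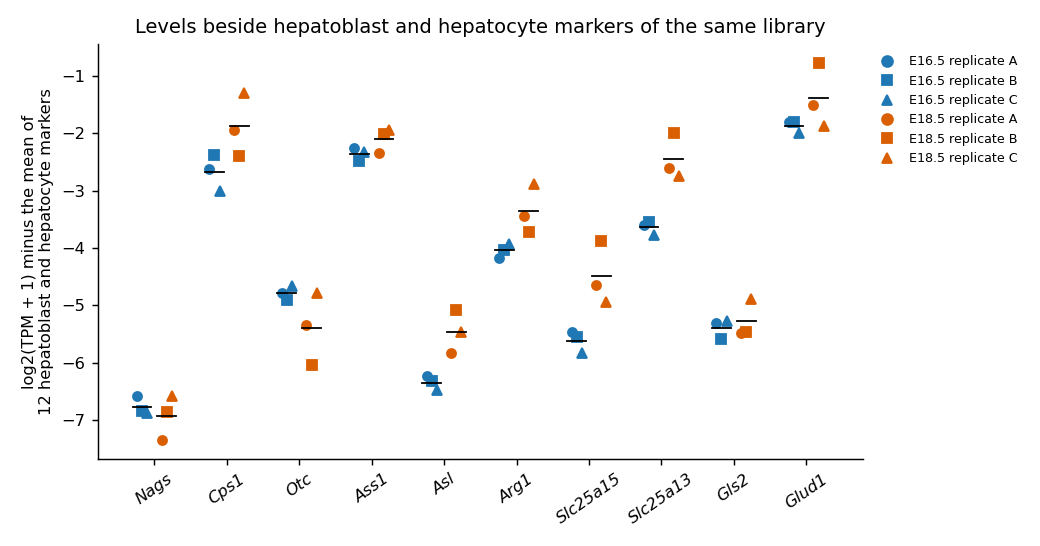
Log2(TPM + 1) of the 10 genes minus the mean of the 12 hepatoblast and hepatocyte markers of the same library, per library and stage, with lines at the mean of 3. The E18.5 libraries lie above those of E16.5 for Asl, Arg1, Slc25a15 and Slc25a13, and the stages overlap for the other 6 genes.

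Paralog pairs were compared inside each library, which largely removes the library total from the ratio. Because 1 TPM is added to each gene, part of it remains where a gene is low. Arg1 was set against Arg2, the mitochondrial arginase of other tissues. The log2 ratio of TPM + 1 was 5.78, 6.47 and 6.74 at E16.5 and 4.84, 4.12 and 5.36 at E18.5. Arg1 remained far the higher of the pair in every library. Slc25a13 over Slc25a12, its paralog aralar, gave 4.42, 4.68 and 4.57 at E16.5 and 4.19, 4.11 and 4.23 at E18.5. Both ratios were lower at E18.5 without overlap, by differences of -1.55 and -0.38. The exact permutation p was 0.1 for each, the smallest possible, and 0.1 after adjustment over the pairs tested. Arg2 stayed low, at 1.22 ± 0.434 and 3.53 ± 1.32 TPM. With 0.1 TPM added instead of 1, the difference was -1.99 for Arg1 over Arg2 and -0.41 for Slc25a13 over Slc25a12.

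The wider pathway was described through 50 further genes in 4 lists and 12 regulators. Of these 62 genes, 58 were tested, and 10 were called higher and 14 lower, beside 26.0% and 5.22% of all genes tested. The genes not tested, because their mean was below 1 TPM, were Rhcg, Nos1, Nos2 and Bcat1. These counts are sensitive to single libraries: without replicate A of E18.5, 2 were called higher and 2 lower, and without replicate B of E18.5, 5 and 10. Leaving out replicates A, B or C of E16.5 gave 6, 6 and 7 higher and 3, 5 and 3 lower. Calls over all genes tested fell too, from 7000 to 1148 and 2499 without replicates A and B of E18.5. They were 4235, 4769 and 4066 without replicates A, B and C of E16.5. Median-of-ratios scaling gave 2 higher and 22 lower, where 10.5% of all genes tested were called lower.

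Enzymes that release ammonia or 1-carbon units from amino acids showed the most calls in 1 direction. Of 11 tested, 5 were lower and 1 higher, beside 5.22% and 26.0% of all genes tested. The median log2 fold change was -0.50 beside 0.42 for all genes, and -1.09 without replicate C of E18.5. Uroc1, urocanate hydratase of the histidine route, fell from 206 ± 30.4 to 57.4 ± 47.0 TPM (-2.22 ± 0.64). Gldc, the decarboxylase of the glycine cleavage system, fell from 202 ± 23.4 to 56.8 ± 26.2 TPM (-1.91 ± 0.32). Amdhd1 and Ftcd, which act after Uroc1 in the same route, fell by 1.49 and 1.03 on the log2 scale. Hal, also of this route, was not called (-0.50 ± 0.54, limma adjusted p = 0.491). Within E18.5, Uroc1, Gldc, Amdhd1 and Ftcd were each lowest in replicate B and highest in replicate C, the order of the hepatocyte marker mean. The part of cell composition was not tested. The fifth gene called lower was Gcsh, another part of the glycine system, at -0.40, and the gene called higher was Sds, serine dehydratase, at 0.82. Gcsh, Sds and Hal fall outside the naming rule of the 4 largest changes and were named after their values were seen.

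In the list of glutamine, ammonia and urea handling, 3 of 16 genes were higher and 3 lower, beside 26.0% and 5.22% of all genes tested. The median of -0.18 was -0.61 under median-of-ratios scaling and -0.58 under quantile normalization. Slc14a1, a urea transporter, fell from 116 ± 54.2 to 8.37 ± 6.96 TPM (-3.79 ± 0.57). At E18.5 it ran in the order of the megakaryocyte markers, with 2.93, 16.2 and 5.98 TPM in replicates A to C beside marker sums of 85.0, 738 and 208 TPM, and the part of these cells was not tested. Aqp8, a water channel that also passes ammonia, fell from 175 ± 35.1 to 50.7 ± 35.5 TPM (-2.02 ± 0.51). Slc38a3, a glutamine transporter of hepatocytes, fell from 158 ± 32.0 to 56.1 ± 30.2 TPM (-1.64 ± 0.43), whereas Slc38a2, a widely expressed amino acid transporter, rose from 137 ± 14.6 to 246 ± 14.7 TPM (0.84 ± 0.12). The mitochondrial glutamate carrier Slc25a18 was also called higher (0.65 ± 0.19) and was named after its value was seen. Glul, glutamine synthetase, the perivenous route of ammonia removal, was at 247 ± 27.8 and 170 ± 43.8 TPM and was not called; it too was named after its value was seen.

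Of 7 transaminases tested, 2 were higher and 2 lower, beside 26.0% and 5.22% of all genes tested. Gpt and Gpt2, the alanine transaminases, were higher (0.64 ± 0.18 and 0.68 ± 0.20). Got2, the mitochondrial aspartate transaminase, and Bcat2, the mitochondrial branched-chain transaminase, were lower by limma, the latter at -0.74 ± 0.18. Got2 fell from 180 ± 22.0 to 90.9 ± 21.7 TPM. Among 12 genes of arginine, ornithine and citrulline use, 0 were higher and 2 lower, beside the same shares of all genes tested. Those lower were the cationic amino acid transporter Slc7a2 (-1.12 ± 0.32) and Ddah1 (-0.48 ± 0.12), which breaks down methylated arginine. Of the 12 regulators, 4 were higher and 2 lower, beside 26.0% and 5.22% of all genes tested. Their median log2 fold change was 0.45 beside 0.42 for all genes, and it was 0.00073 under median-of-ratios scaling and 0.087 under quantile normalization. Prox1 rose from 140 ± 21.5 to 328 ± 55.2 TPM (1.22 ± 0.17) and Foxa2, a pioneer factor of endoderm, from 25.9 ± 5.74 to 53.8 ± 6.82 TPM (1.04 ± 0.19). Gcgr, the glucagon receptor, through which glucagon raises urea cycle gene expression, fell from 30.2 ± 5.02 to 11.1 ± 5.16 TPM (-1.44 ± 0.32). Hnf4a, a nuclear receptor that drives hepatocyte genes, fell from 251 ± 4.42 to 165 ± 35.9 TPM (-0.62 ± 0.17). The remaining calls were Nr3c1 and Ppargc1a, each at 0.55 and named after their values were seen. All calls in these lists are limma's at an adjusted p under 0.05.

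**Figure D5:**
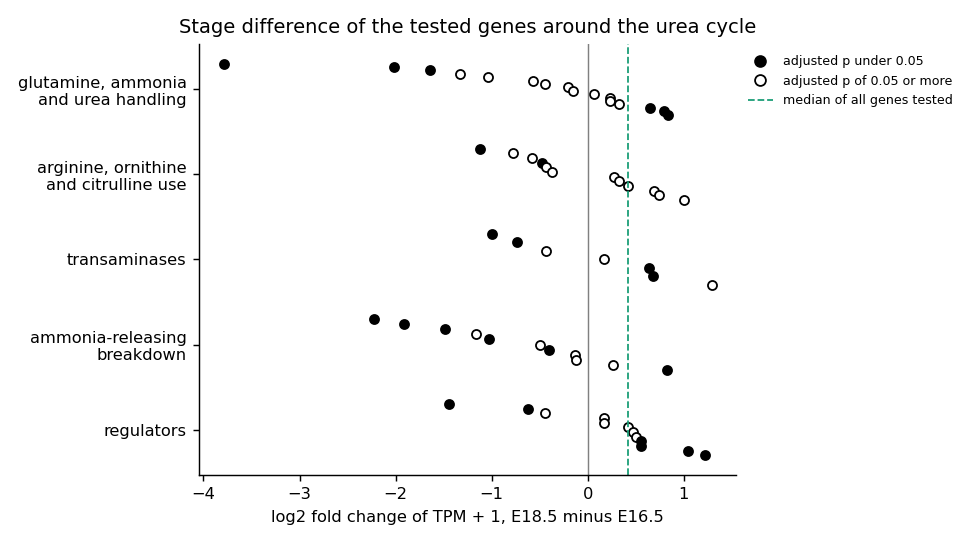
Log2 fold change of TPM + 1 (E18.5 minus E16.5) of the 58 tested genes around the urea cycle, by list, filled where the limma adjusted p was under 0.05, with a dashed line at the median of all genes tested (0.42). Ammonia-releasing enzymes lie mostly left of 0, and the lowest point is Slc14a1 at -3.79.

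The genes whose levels ran most like Cps1 over the 6 libraries, among 11373 protein-coding genes averaging 5 TPM or more, members left out, were Dpys (Pearson r = 0.9931), Keg1, Cyp2c70, BC025446 and Ephx2 (0.9617). Dpys, dihydropyrimidinase, had 35.5, 45.1 and 32.3 TPM at E16.5 and 34.5, 13.3 and 55.1 TPM at E18.5. Within the urea cycle genes the r to Cps1 was highest for Slc25a13 (0.95) and Arg1 (0.94) and lowest for Glud1 (0.42). These values are a description only. Genes of the same library share its depth and cell composition, and the libraries differed in depth and marker levels. Replicate B of E18.5 had the lowest value in each of the series named here.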

How the data were processed

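GFP+ cells were sorted from pools of 15 livers of Sox9-GFP embryos and total RNA was sequenced with a strand-specific kit. Reads were trimmed by the authors (Trimmomatic) and mapped to GRCm38 (HISAT2 2.1.0), and counts per GENCODE vM15 gene (HTSeq 0.5.4p3) were turned into TPM. The values deposited are TPM, with the same total in each library. Whether the counting used strand is not given in the sources used here.

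Genes were matched by Ensembl ID, ignoring its version, to GENCODE vM21 (52403 of 52550 IDs). Multiplying TPM by exon length and rescaling to what 1 read is worth gave whole reads within 0.01 for 100% of 180057 values. The version of Glud1 differed, so it has no reads here. Reads without molecular identifiers are not independent, so limits of 3 reads cover counting error only. The test between stages was limma 3.58.1 (R 4.3.3) on log2(TPM + 1), by eBayes with a trend, for genes averaging 1 TPM or more. Fold changes on this scale understate those of low genes. The step was run on simulated data with the same spread in both stages, unlike these libraries. That run checked the code and does not bear on the calls made here. Exact permutation tests were run in Python 3.11.15. Copies were found with blastn on vM21 transcripts. Promoters are from RefSeq (GRCm38.p6), which gave a window for 6 of the 10 genes. No window was found for Cps1, Asl, Arg1 or Gls2.

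The 10 genes and all lists were chosen with earlier results of these data known. Named were all 10 genes, the 4 largest changes called in each pathway or regulator list, listed genes below 1 TPM, 6 defining markers and the 5 genes most like Cps1. Alternatives were a pseudocount of 0.1, no filter, a minimum mean of 5 TPM, median-of-ratios and quantile scaling, eBayes without trend or robust, a replicate block, limma voom on recovered reads, omission of each library, and markers without Hnf4a and Cebpa. Some results for listed genes are left out here. The summing of near-identical copies was added after seeing the data.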

Additional observations from a re-analysis of the deposited data

How the results depend on the processing

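Each library pool counts as 1 sample, with 3 per stage. The calls of Nags and Otc were lost when any library other than replicate C of E18.5 was left out, which also leaves fewer samples. The number of genes called, 7000, became 4282 without a filter, 3795 under median-of-ratios and 3796 under quantile scaling, and 1148 to 5432 when 1 library was left out (1148 without replicate A of E18.5). Of the 10 urea cycle genes, 3 were called, against 1 without a filter, 5 with the replicate block, 6 without replicate C of E18.5 and 1 in each of the other omissions. Correlations of deviations from the stage means were -0.04, 0.08 and 0.14 for the same letter and ran from -0.15 to 0.08 for unlike letters. With 3 libraries per stage they cannot settle whether the letters pair the libraries. The replicate block added calls for Ass1 (-0.98, adjusted p = 0.0236) and Gls2 (-1.13, adjusted p = 0.0318) in limma. Nags was -1.41 without a filter (adjusted p = 0.0562), and -1.84 to -1.08 with 1 library left out. Otc was no longer called with a pseudocount of 0.1 (-1.89), no filter, no trend or robust eBayes (-1.85 each), median-of-ratios scaling (-2.30) or quantile normalization (-2.11), and ranged from -2.40 to -1.15 with 1 library left out. Ass1 was called with a mean of at least 5 TPM (-0.98) and in voom (-1.14), with -1.32 to -0.66 over the omissions. Slc25a15 was called under median-of-ratios scaling (-0.57), and Gls2 in voom (-1.34), with -1.58 to -0.67 over the omissions. With 1 library left out, Asl ranged from -0.61 to -0.17, Cps1 from -1.01 to 0.17, Arg1 from -1.04 to 0.0077 and Slc25a13 from -0.17 to 0.086, and the positive values of the last 3 came without replicate B of E18.5. For the pathway and regulator genes, 14 were lower and 10 higher. The lower calls became 5 without a filter, 22 under median-of-ratios and quantile scaling, 9 without the trend and 2 to 16 with 1 library left out. The higher calls became 6 without a filter, 2 under median-of-ratios and 4 under quantile scaling, 5 in voom and 2 to 8 with 1 library left out. The cause was not tested, except that an omission leaves fewer samples. Of the 80 values set against markers, none moved by more than the spread between replicates. Most of these values omit 1 library, which cannot move a mean of 3 that far, so they do not test stability. The signs of Nags and Gls2 did turn.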
